A study of Rattus norvegicus with 50 samples.

Results

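Kidneys of obese rats given enalapril were compared with kidneys of lean rats given vehicle, separately in cortex and in medulla, to measure which genes still differed from lean under the drug. The samples were chosen by their labels: the obese enalapril 10 mpk group and the lean vehicle group of each tissue, 5 libraries each, which makes 20 of the 50 libraries of the series. The series measured total RNA, after removal of ribosomal RNA, in cortex and medulla of ZSF1 rats treated for 28 weeks, and its other groups were obese rats given vehicle or MK-8722 at 1 or 10 mpk. The dose is given in the unit of the labels. The age in the labels is 20 weeks, shorter than the treatment, so the age at collection is uncertain. Both genotypes were of the ZSF1 strain, and both were dosed, with enalapril or with vehicle. No lean group received enalapril, so an effect of the drug in lean animals and a difference left from obesity cannot be told apart here. The labels do not say that libraries came from separate animals or which cortex and medulla libraries shared one, so the spread behind each p-value is that among libraries and may be technical.

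The obese ZSF1 rat lacks normal leptin receptor signalling and develops obesity, diabetes, hypertension and progressive kidney disease, and lean ZSF1 rats serve as its control. Enalapril is converted to an inhibitor of angiotensin-converting enzyme, which lowers angiotensin II, blood pressure and filtration pressure in the glomerulus and is used to slow diabetic kidney disease. The cortex holds the glomeruli and most proximal tubule, and the medulla holds the loops of Henle and collecting ducts, so the same whole-kidney disease can leave different traces in each.

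Values were the deposited FPKM, the fragments of a gene relative to its transcript length and to the library's mapped total, for 32545 Ensembl gene IDs. None of these IDs could be paired with a gene name, as 0 of 32545 matched the reference table, so genes are given by ID, no role can be stated for them, and the tissue labels were not checked against marker genes. A log2 fold change below is enalapril minus lean vehicle on log2(FPKM + 0.5), which understates changes of low genes. A gene was called when its adjusted p from limma (two-sided, Benjamini-Hochberg over all genes tested) was under 0.05. In bulk tissue, fewer cells of a type and less RNA per cell cannot be told apart.

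Absolute depth is unknown. Relative depth, recovered from the value that 1 read takes in low genes, ranged from 0.596 to 1.52 over the 50 libraries. In cortex it overlapped between lean (1.26 to 1.42) and enalapril libraries (1.11 to 1.52). In medulla every enalapril library (0.610 to 0.853) was shallower than every lean library (0.987 to 1.18), so depth and group cannot be told apart there. The 6 most abundant IDs took 61.2% ± 2.37 of the summed FPKM in lean and 61.2% ± 1.91 in enalapril cortex, against 61.9% ± 1.43 and 56.9% ± 3.07 in medulla (SD, n = 5). The mean shares were thus alike in cortex and apart in medulla, and a shift like that in medulla moves all other FPKM values. For both tissues the counts of calls are given on the deposited values and after rescaling. In rescaling, a library is divided by the median, over genes, of its ratio to each gene's geometric mean. For each of the 20 libraries, the most similar of the other 19 came from the same tissue and the same group.

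In cortex, 3656 genes were higher and 894 lower under enalapril than in lean kidneys, of 12434 genes tested (limma). That is 36.6% called, 29.4% higher and 7.19% lower. After rescaling, 3857 genes were called (31%), and they divided almost evenly into 1979 higher (15.9%) and 1878 lower (15.1%). The median log2 fold change of all tested genes was 0.13 on the deposited values, a shift that the rescaling removes. The genes called higher and lower on both scales numbered 1979 and 894, and no call was reversed between the scales. Rescaling shifts most log2 fold changes by a similar amount, so a reversal was unlikely from the outset. Another 1677 were called higher on the deposited values alone, and 984 were called lower on the rescaled values alone. Higher genes made up 80.4% of the calls before and 51.3% after rescaling, so the excess of higher genes in cortex depends on the scaling.

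Most of these cortical differences were small. Of the 4550 genes called on the deposited values, 62.4% differed by less than 0.5 on the log2 scale. A log2 difference of at least 1 was reached by 500 higher and 54 lower genes, and after rescaling by 382 and 77. All 5 enalapril values lay above all 5 lean values in 2696 genes and below them in 625, together 26.7% of those tested. After rescaling these numbers were 1556 and 1396, or 23.7%. Of the 7884 genes not called, 96.5% had a 95% interval of the difference that stayed within 1 on the log2 scale, and 83.7% one within 0.5. Smaller differences in those genes were not resolved.

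In medulla, 5024 genes were higher and 1018 lower under enalapril than in lean kidneys, of 13044 tested, which is 46.3% called, 38.5% higher and 7.8% lower (limma). After rescaling, 4684 genes were called (35.9%), 2374 higher (18.2%) and 2310 lower (17.7%). The median log2 fold change of all tested genes was 0.22 on the deposited values. On both scales 2374 genes were called higher and 1018 lower, and no call was reversed between the scales, which was again unlikely from the outset. With relative depth as a term in the model the calls fell to 3276 on the deposited and 2985 on the rescaled values. A log2 difference of at least 1 was reached by 963 higher and 132 lower genes, and after rescaling by 627 and 235. The groups did not overlap in 3552 genes above and 705 below, together 32.6% of those tested, and after rescaling in 1778 and 1728, or 26.9%. Of the 7002 genes not called, 94.9% had an interval within 1 and 67.5% one within 0.5.

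**Figure D1:**
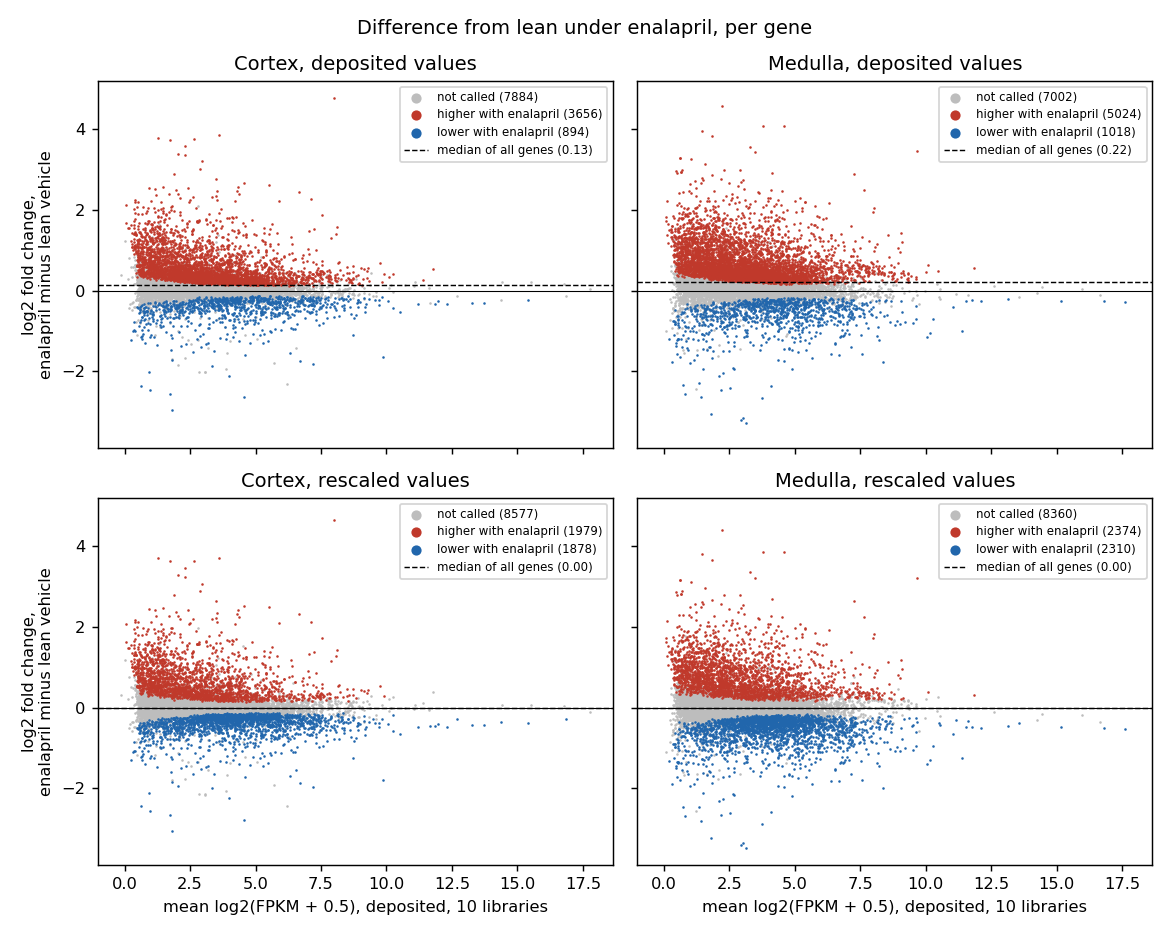
Log2 fold change of enalapril minus lean vehicle (vertical) against mean log2(FPKM + 0.5) over 10 libraries (horizontal) for each tested gene, in cortex (left) and medulla (right), on deposited (top) and rescaled values (bottom). Red points were called higher and blue points lower, and the dashed line is the median of all tested genes, which lies at 0.13 in cortex and 0.22 in medulla before rescaling.

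Lower genes were more abundant than higher ones. In cortex the median lean FPKM was 21.5 for the genes called lower and 6.03 for those called higher, against 7.12 for all tested genes. In medulla these medians were 22.4, 6.16 and 7.41. The lean level is itself one side of the tested difference, which widens this gap. Taken from enalapril libraries instead, the cortical medians were 15.8 for lower genes against 8.76 for higher genes. The medullary medians were then 15.1 against 9.57, so the order held but the gap was narrower. When cortical genes were divided into 4 bins of equal size by mean level, 15.1% of the most abundant bin were lower against 4.41% of the least abundant, and after rescaling 30.1% against 7.14%. In medulla the shares were 15.8% and 4.81%, and after rescaling 33.7% and 8.07%. Higher genes did not become more frequent with abundance. In cortex 28.9% of the most and 30.4% of the least abundant bin were higher, and after rescaling 13.5% and 22.5%. In medulla the shares were 37.4% and 38.9%, and after rescaling 16.5% and 24.4%. The median standard error fell from 0.135 in the least to 0.0653 in the most abundant cortical bin on the deposited values.

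Single libraries showed the same separation. For each library, the genes outside the range of 4 lean libraries of its tissue were counted, with lean libraries each set against the other 4 and an enalapril library set against every choice of 4 and averaged. In cortex, 29.3% to 47.3% of tested genes lay outside in lean libraries and 61.3% to 72.6% in enalapril libraries. In medulla the ranges were 31.1% to 45.6% and 66.0% to 76.5%. The groups did not overlap in either tissue. After rescaling they still did not overlap, with 29.8% to 47.7% against 58.4% to 65.4% in cortex and 32.4% to 48.2% against 61.0% to 71.5% in medulla. The highest cortical value belonged to enalapril replicate 1, while the other 4 cortical enalapril libraries lay close together at about the group median of 62.1%. The median SD of a gene across the 5 libraries was 0.140 in enalapril and 0.128 in lean cortex, and 0.200 and 0.154 in medulla, on the log2 scale of the deposited values.

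**Figure D2:**
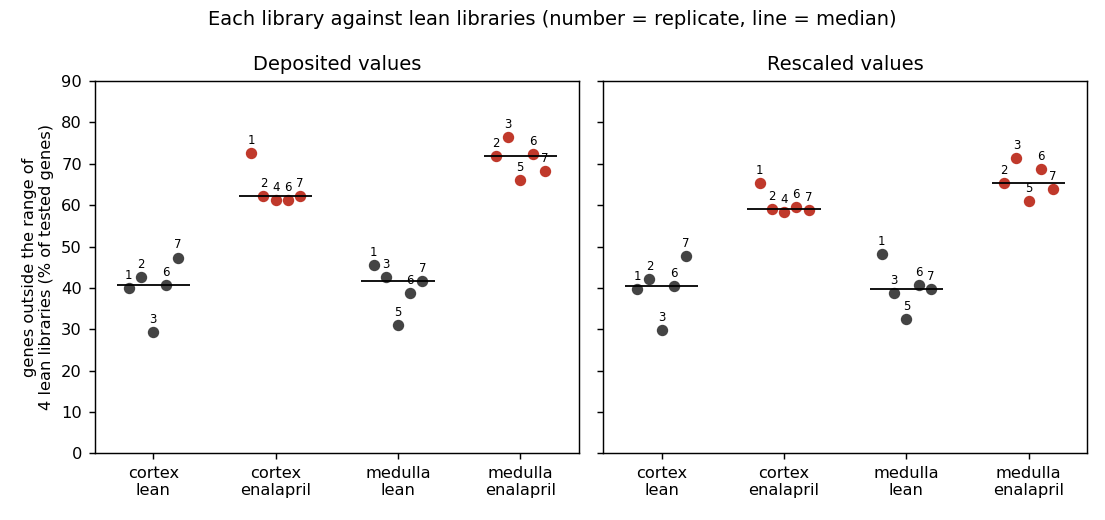
Share of tested genes (vertical, percent) that lie outside the range of 4 lean libraries of the same tissue, for each of the 20 libraries, on deposited (left) and rescaled values (right). Numbers are replicate labels and lines are group medians; all enalapril libraries lie above all lean libraries of their tissue, and cortical enalapril replicate 1 is the highest of its group.

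The IDs with the largest differences in cortex were taken by a rule that asked for a call on both scales, 2 FPKM or more on average in whichever group was higher, and groups that do not overlap, which 1675 higher and 570 lower genes met. The lack of overlap is therefore part of how they were chosen. The filter of 1 FPKM in 5 of 10 libraries also lets a gene enter through the group where it is high. The top of the list was ENSRNOG00000043451. Its FPKM in cortex was 44.2, 44.9, 45.6, 50.7 and 58.2 in lean libraries and 1137, 1193, 1210, 1245 and 2101 under enalapril. The lean libraries lay close together and 1 enalapril library, replicate 1, stood above the other 4. The log2 fold change was 4.77 ± 0.16 (SE, adjusted p = 4.61e-08), and 4.63 after rescaling. In medulla the same ID was at 192, 211, 271, 275 and 290 in lean libraries and at 2250, 2475, 2849, 2899 and 3042 under enalapril. It was thus more abundant in medulla in both groups, with a smaller log2 fold change of 3.45. The difference between the tissues was itself called, at 1.32 (adjusted p = 0.00104).

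The next higher ID in cortex was ENSRNOG00000030729. Its FPKM was 2.14, 2.36, 2.50, 2.91 and 3.85 in lean and 32.4, 38.3, 43.0, 51.0 and 71.3 in enalapril cortex. Replicate 1 was again the highest enalapril library. The log2 fold change was 3.84 ± 0.21 (SE, adjusted p = 8.06e-07). In medulla it was at 1.90 to 2.62 in lean and 25.7 to 40.7 in enalapril libraries, with a log2 fold change of 3.57. The interval of the difference between the tissues ran from -0.23 to 0.79, and it was not called (adjusted p = 0.621).

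Of the lower IDs in cortex, ENSRNOG00000010932 had the largest difference. Its FPKM was 8.20, 8.63, 9.80, 9.80 and 10.2 in lean and 0.505, 0.592, 0.811, 0.920 and 1.10 in enalapril cortex. The log2 fold change was -2.95 ± 0.13 (SE, adjusted p = 6.83e-09). In cortex this ID passed the filter mainly through the lean group. In medulla it was at 20.2 to 25.3 in lean and 6.69 to 12.7 in enalapril libraries, a log2 fold change of -1.28. The difference was larger in cortex than in medulla, by -1.67 (adjusted p = 6.18e-05).

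The next lower ID, ENSRNOG00000036984, varied far more between libraries. It was at 4.42, 5.82, 7.64, 9.41 and 12.6 FPKM in lean and at 0.0386, 0.247, 1.02, 2.22 and 2.31 in enalapril cortex. Its log2 fold change was -2.56 ± 0.52 (SE, adjusted p = 0.00499), and over all alternative settings its highest adjusted p was 0.042. In medulla it was at 39.2 to 47.4 in lean and at 7.60 to 18.4 in enalapril libraries, a log2 fold change of -1.74. Its order among lean cortex libraries is set beside IDs of the medulla below.

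In medulla the rule was met by 2081 higher and 665 lower genes. ENSRNOG00000048402 led the higher ones, at 0.269, 0.364, 0.368, 0.559 and 0.856 FPKM in lean and 17.4, 21.7, 22.8, 25.4 and 25.6 under enalapril. As all lean values were under 1 FPKM, this ID passed the filter only through the enalapril group. The log2 fold change was 4.57 ± 0.16 (SE, adjusted p = 8.32e-10). In cortex its enalapril libraries spread widely, from 5.12 to 37.5 with replicate 4 highest, above lean libraries at 0 to 1.16. The cortical log2 fold change was 3.73 ± 0.53 (SE).

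The second, ENSRNOG00000049829, was at 4.28, 5.27, 5.44, 5.56 and 6.45 FPKM in lean and 83.7, 90.1, 104, 107 and 112 in enalapril medulla. Its log2 fold change was 4.08 ± 0.11 (SE, adjusted p = 7.59e-11). In cortex the enalapril libraries were at 20.2, 32.7, 34.7, 93.8 and 124 and the lean libraries at 5.55 to 9.78. The groups did not overlap there either, but the enalapril libraries fell into a lower set of 3 and a higher set of 2. The interaction was not called, with an interval from -2.59 to -0.46 and an adjusted p of 0.116.

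Among the lower IDs in medulla, ENSRNOG00000019481 was at 22.4, 23.0, 25.6, 32.6 and 33.8 FPKM in lean and 1.01, 1.83, 2.67, 3.34 and 3.97 under enalapril. Its log2 fold change was -3.27 ± 0.27 (SE, adjusted p = 3.19e-06). It was low in cortex, at 0.855 to 6.15 in lean libraries and at most 0.239 in enalapril libraries. ENSRNOG00000028985 was at 18.9, 21.6, 21.9, 25.4 and 27.1 in lean and 1.48, 1.86, 2.10, 2.26 and 2.56 in enalapril medulla. Its log2 fold change was -3.20 ± 0.13 (SE, adjusted p = 2.47e-09).

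**Figure D3:**
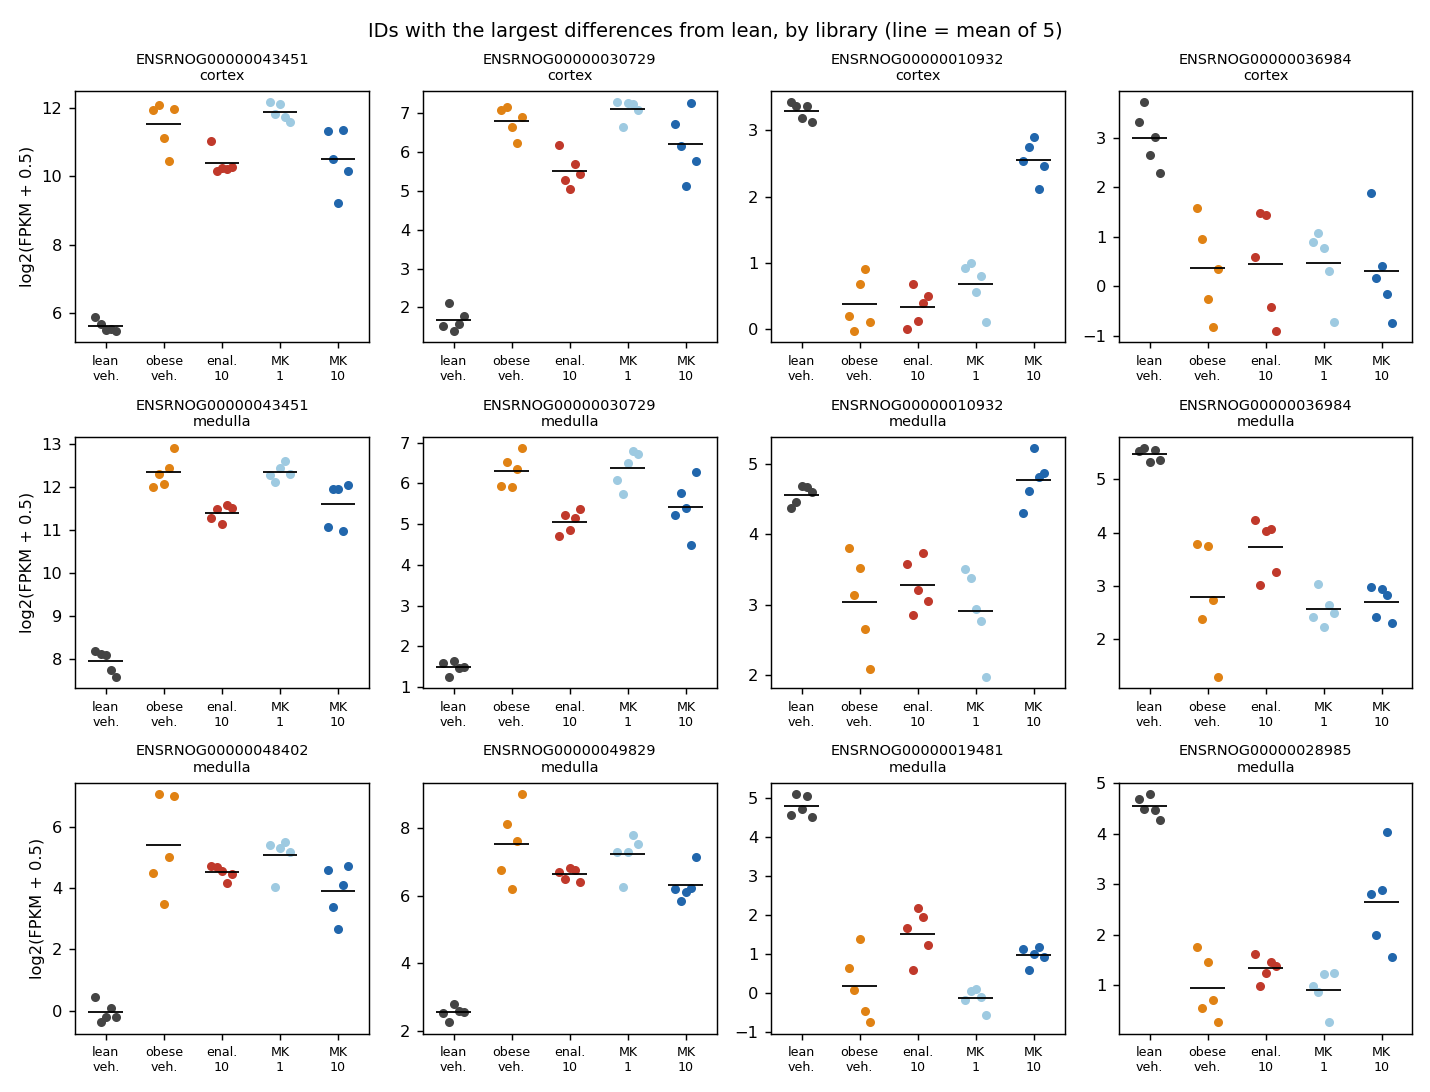
Log2(FPKM + 0.5) of the IDs with the largest differences (vertical) by group (horizontal), each point 1 library and each line the mean of 5. Rows 1 and 2 show the cortex IDs in cortex and in medulla, and the bottom row the medulla IDs; lean and enalapril libraries do not overlap in any panel, which the choice of IDs required in the tissue where each was chosen.

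Beyond these, the third largest rise in cortex was 3.78 and the third largest fall -2.46 on the log2 scale, and the tenth largest fall was -1.64. In medulla the tenth largest rise and fall were 3.27 and -2.33. Of the 10 cortical rises, 9 were called higher in medulla too, and of the 10 falls, 9 were called lower there. Among all genes tested in medulla, 38.5% were called higher and 7.8% lower on the deposited values. Of the 10 medullary rises, 8 were called higher in cortex, where 29.4% of all tested genes were called higher and 7.19% lower. Of the 10 medullary falls, 2 were called lower in cortex and the rest were not, of which ENSRNOG00000019481 and ENSRNOG00000028985 were not tested there.

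Cortex and medulla share no library, so their differences can be set against each other, although they may share animals. Both tissues tested 12201 genes, and 2852 of these were called higher in each on the deposited values, which is 79.2% of the 3601 higher in cortex and 60.8% of the 4691 higher in medulla. Another 515 were lower in both, 60.2% of 856 and 55.7% of 925. The base rate, taken over every gene tested in a tissue, was 38.5% for higher and 7.8% for lower calls of medulla. For cortex it was 29.4% and 7.19%. On the deposited values the shared part thus stood further above its base rate for lower calls than for higher calls. That order did not hold after rescaling, as the shares below show. Opposite calls were made for 9 genes higher in cortex and lower in medulla and for 17 the other way. After rescaling, the base rates were 18.2% and 17.7% for medulla, with 15.9% and 15.1% for cortex. On that scale 1435 genes were higher in both (74.1% of the cortex and 67.4% of the medulla genes). Another 1281 were lower in both (70.1% and 58.5%), and 11 and 18 had opposite calls. Across these genes, which are not independent replicates, the log2 fold changes of the tissues had a Pearson r of 0.809 and a Spearman rho of 0.741. A log2 difference of at least 1 in both tissues was reached by 431 higher and 28 lower genes, and after rescaling by 303 and 48. The rescaled log2 fold changes had an r of 0.811 and a rho of 0.744.

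**Figure D4:**
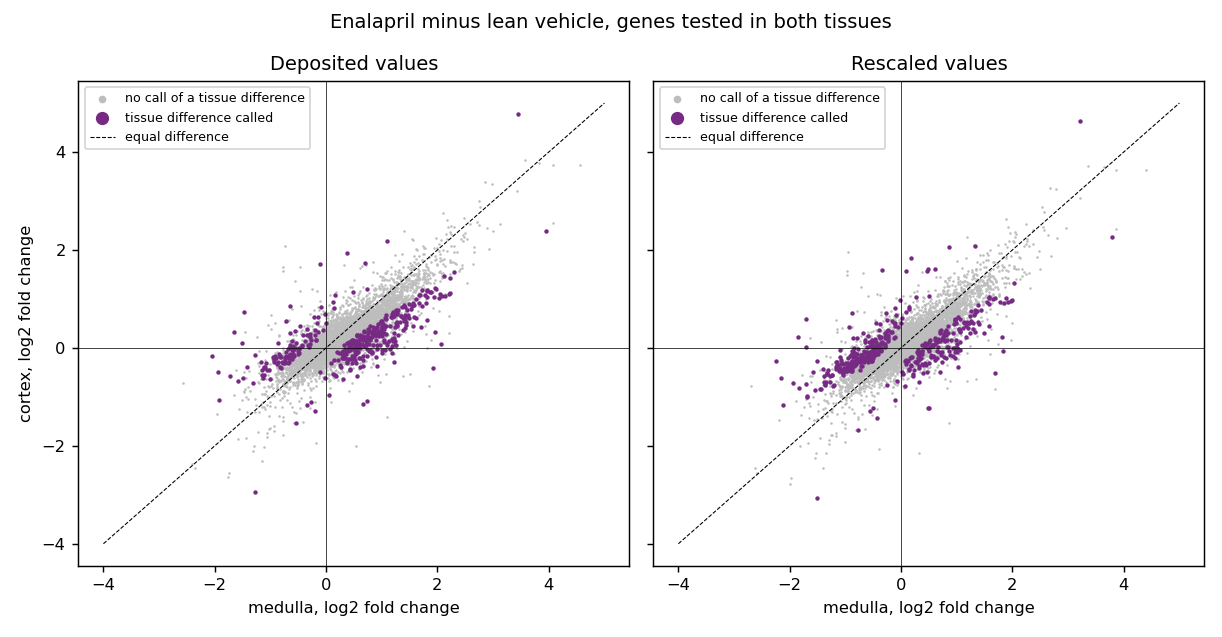
Log2 fold change of enalapril minus lean vehicle in cortex (vertical) against that in medulla (horizontal) for the 12201 genes tested in both, on deposited (left) and rescaled values (right). The dashed line marks equal differences and purple points are genes whose difference was called unequal between the tissues; most genes lie along the line, with r = 0.809 on the deposited values.

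The difference between the tissues was tested gene by gene as an interaction over the 20 libraries. Of 13491 genes tested, 459 were called on the deposited values (3.4%). In 145 (1.07%) enalapril minus lean was higher in cortex than in medulla, and in 314 (2.33%) it was lower. After rescaling 495 were called (3.67%), 283 (2.1%) higher and 212 (1.57%) lower. The direction that was more common therefore turned with the scaling, and 145 and 211 genes were called on both scales. With relative depth as a term the calls fell to 171 and 223 on the deposited and rescaled values. Of the 314 genes, 132 were higher in both tissues, by more in medulla, 113 were called higher in medulla and not called in cortex, and 17 were lower in cortex and higher in medulla. Of the 145 genes, 45 were lower in medulla and not called in cortex, 36 were lower in both, and 9 were higher in cortex and lower in medulla.

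Of the 135 genes with a positive interaction that was called on both scales and reached a mean of 2 FPKM in some group, ENSRNOG00000056476 had the largest, 2.99 (adjusted p = 2.24e-05) and 3.13 after rescaling. Interactions reached 4.22 and -2.88 among all tested genes, but those extremes were not called. In medulla it was at 7.61, 8.73, 9.59, 10.8 and 12.1 FPKM in lean and 0.580, 0.663, 0.693, 0.746 and 0.952 in enalapril libraries. In cortex it was near 0 in both groups, at 0 to 1.04 in lean and 0 to 0.348 in enalapril libraries. The interaction thus came from a gene measured mainly in medulla, which passed the filter mainly through lean medulla. The medullary ID ENSRNOG00000028985 followed, with an interaction of 2.31 (adjusted p = 0.0104). Its cortical values were 0.131 to 3.60 in lean and 0 to 0.219 in enalapril libraries, and with a pseudocount of 0.1 its interaction was 1.63 and was not called (adjusted p = 0.28).

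Of the 200 genes with a negative interaction under the same rule, the leading pair was listed at 0 in nearly all lean libraries, so no fold is given. ENSRNOG00000010254 was listed at 0 in 4 lean medulla libraries and at 0.0726 in the other, and was at 2.74, 2.87, 3.19, 3.69 and 4.49 FPKM in enalapril medulla. In cortex no library of either group exceeded 0.0743. The interaction was -2.86 (adjusted p = 1.88e-08), and over all alternative settings on both scales it ranged from -4.78 to -2.61. ENSRNOG00000043342 was listed at 0 in all 10 lean libraries. It was at 3.35, 3.76, 3.85, 4.44 and 6.89 in enalapril medulla, and in enalapril cortex it was listed at 0 in 2 libraries and was at 0.403, 0.408 and 0.892 in the others. Its interaction was -2.63 (adjusted p = 6.18e-05), with a range of -3.87 to -2.31 over those settings. Of the 4 groups compared, only enalapril medulla reached 1 FPKM for either ID. Both therefore entered the test through the group where they are high, so their calls are no separate support for that. With lean levels at or near 0, the size of these interactions depends on the pseudocount.

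**Figure D5:**
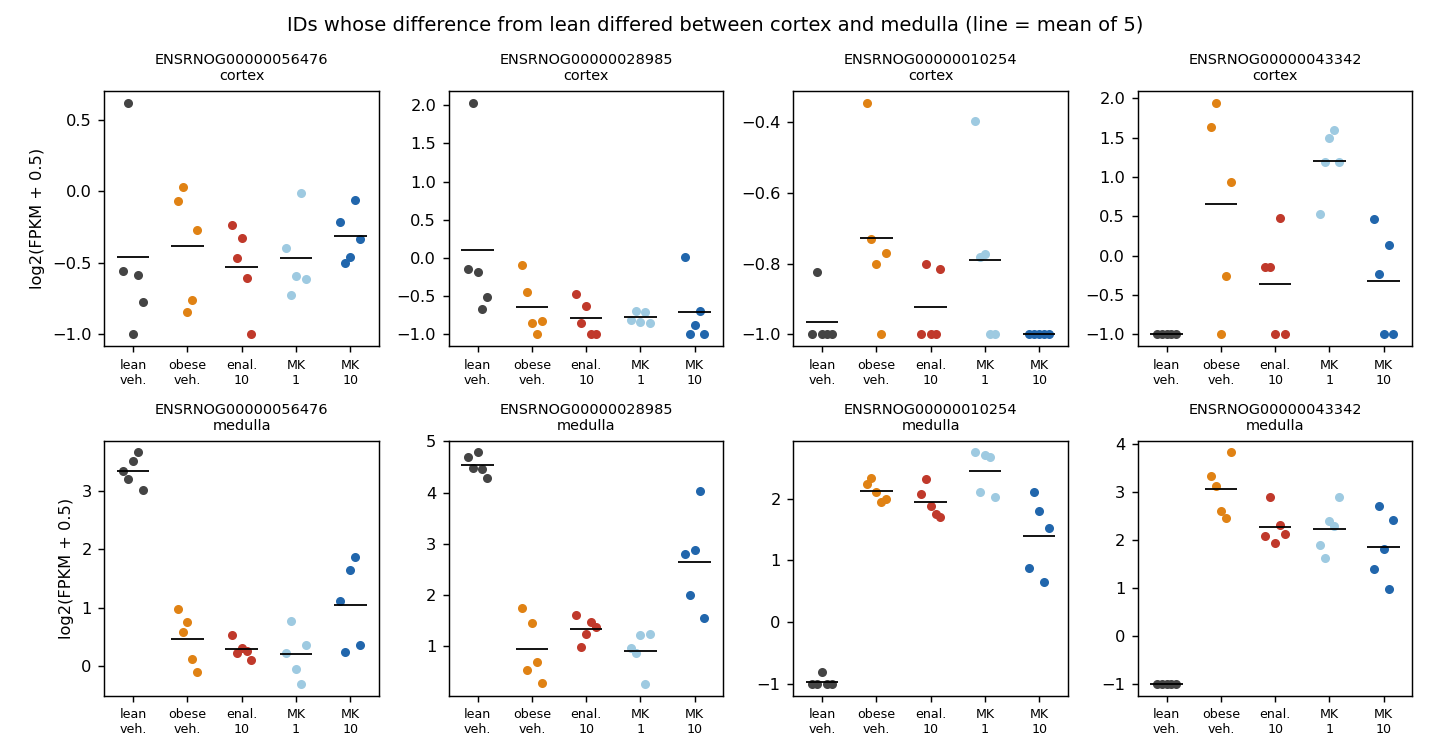
Log2(FPKM + 0.5) of the IDs with the 2 largest positive and 2 largest negative interactions called on both scales, with a mean of at least 2 FPKM in some group (vertical) by group (horizontal) in cortex (top) and medulla (bottom), each point 1 library and each line the mean of 5. In medulla lean and enalapril libraries separate in all 4 panels; in cortex values stay near the bottom of the scale, where -1 is an FPKM of 0, and lean replicate 2 is high for the first pair of IDs.

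Cortical lean replicate 2 was the highest cortical lean library for ENSRNOG00000019481 (6.15), ENSRNOG00000028985 (3.60), ENSRNOG00000056476 (1.04) and ENSRNOG00000036984 (12.6), all of which were more abundant in lean medulla. Whether IDs of the medulla in general were high in that library depended on how such IDs were picked, and 2 rules were tried in turn, both after the data had been seen. Both used the 20 libraries of obese vehicle and MK-8722 1 mpk, a mean of at least 5 FPKM and a ratio of at least 8. The first rule compared the lowest medulla with the highest cortex library and gave 4 medulla and 0 cortex IDs. Their summed FPKM in replicate 2 was 0.640, the median of the lean cortex range of 0.169 to 0.807. The second rule, tried once the first had not set that library apart, compared tissue means and gave 19 medulla and 11 cortex IDs. The sum of these 19 was 190 in replicate 2, the highest of lean cortex libraries at 42.9 to 190, and lower in enalapril cortex at 14.6 to 46.5. Lean cortex libraries took the same order by this sum as by ENSRNOG00000036984, but another order by the sum of the first 4. In medulla the sum of the 19 was 779 to 1050 in lean and 378 to 625 in enalapril libraries, without overlap, whereas the sum of the first 4 overlapped, at 60.7 to 108 and 70.9 to 164. As the rules disagree, no statement on tissue purity is made, and its part in the results was not tested.

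The other obese groups were set beside enalapril in fits of all 25 libraries of a tissue. All these comparisons share the lean libraries, so no overlap between them is given. In cortex 3410 genes (25.1%) differed from lean under enalapril, 8300 (61.1%) in obese vehicle, 8784 (64.7%) under MK-8722 at 1 mpk and 5206 (38.3%) at 10 mpk. After rescaling these were 3338 (24.6%), 6212 (45.7%), 7057 (52%) and 5457 (40.2%). In medulla the counts were 6659 (46.9%), 9611 (67.7%), 9066 (63.9%) and 6767 (47.7%), and after rescaling 5360 (37.8%), 7584 (53.4%), 7530 (53%) and 6117 (43.1%). Enalapril thus had the fewest calls against lean of the 4 obese groups in each tissue and on each scale. A count depends on the spread within groups as well as on the size of differences. In these fits the spread was pooled over groups, so a gene had the same standard error in each comparison of a tissue and scale.

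Levels of the leading IDs under enalapril were also tested directly against obese vehicle, in the same fits. Of all tested genes, 1959 (14.4%) were called in that comparison in cortex and 1509 (10.6%) in medulla. After rescaling these were 267 (1.97%) and 582 (4.1%), so most of those calls depended on the scaling. ENSRNOG00000043451 was at 1394 to 4346 in obese vehicle cortex, and enalapril differed from it by -1.13 on the log2 scale (adjusted p = 0.0335). After rescaling that difference was -0.94 and was not called (adjusted p = 0.0672). The medullary difference was -0.95 (adjusted p = 0.0153), and -0.81 after rescaling (adjusted p = 0.0227). ENSRNOG00000030729 was likewise lower than in obese vehicle, with differences of -1.27 for cortex (adjusted p = 0.0201) and, for medulla, -1.25 (adjusted p = 0.0151). After rescaling these were -1.08 (adjusted p = 0.0362) and -1.12 (adjusted p = 0.0227). Both IDs were higher than lean in every enalapril library.

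ENSRNOG00000019481 in medulla was higher under enalapril than in obese vehicle, by 1.34 (adjusted p = 0.0187) and after rescaling by 1.40 (adjusted p = 0.0247), and so lay nearer to lean. ENSRNOG00000010932 in cortex was at 0.484 to 1.39 in obese vehicle, and the difference of enalapril from it was -0.03 ± 0.19 (SE, adjusted p = 0.907). Under MK-8722 at 10 mpk it was at 3.83 to 6.99, and enalapril was different from that group by -2.21 (adjusted p = 1.99e-08), and by -2.23 after rescaling (adjusted p = 1.22e-07). Of all cortical genes tested between those groups, 9.63% were called, and 10.7% after rescaling. The remaining IDs named for a tissue, ENSRNOG00000036984, ENSRNOG00000048402, ENSRNOG00000049829 and ENSRNOG00000028985, were not called between enalapril and obese vehicle on either scale, in the tissues where they were tested.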

How the data were processed

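RNA of kidney cortex and medulla was sequenced by the authors, who deposited 1 table of FPKM values with 32545 Ensembl gene IDs. The aligner, counter and build were not given in the sources used here. Columns were matched to samples by the library number in the labels.

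Genes with a deposited FPKM of at least 1 in 5 or more of the libraries of a fit were tested on log2(FPKM + 0.5) with limma 3.58.1 in R 4.3.3 (mean-variance trend, robust moderation, two-sided, Benjamini-Hochberg adjusted p under 0.05). Each tissue comparison used its 10 libraries and the interaction all 20. Rescaled values were divided by the library's median, over genes, of the ratio to each gene's geometric mean. Tests were checked on simulated data.

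Absolute depth is unknown. Of 40121 low values in 3459 genes, 94.1% lay within 0.1 of a whole multiple of the value of 1 read, which gave relative depth. Depth limits the precision of low genes.

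The rule for named genes took the largest differences called on both scales, with a mean of at least 2 FPKM in the higher group and no overlap, and asked for a gene symbol. Since 0 of 32545 IDs matched a name, it was limited to 2 IDs per direction and tissue. The interaction took the same number, with 2 FPKM in any of the 4 groups and no condition on overlap. The gene lists, cell type markers and sequences were not used. The samples, lists and rules were chosen with earlier results of these data known.

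Alternatives were another pseudocount, no filter, other scalings, other libraries in the fit, moderation without trend, a replicate block, relative depth or library number range as a term, and leaving out each library. The 2 rules for tissue-marking IDs were written after the data had been seen, the second after the result of the first was known, and both are reported.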

Additional observations from a re-analysis of the deposited data

Results flagged for a closer look

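In 60 groups of 5 libraries checked for a single library far from the others, 9 had one. Chance gives about 1 in 20 for independent groups of untied values, which does not hold for all of these: 2 of the 9 have 4 libraries at 0, and 2 are the same library on 2 scales. Cortical enalapril replicate 1 was apart in the share of genes outside the lean range, at 72.6% on the deposited and 65.4% on the rescaled values, and for ENSRNOG00000043451 at 2101 FPKM. Cortical enalapril replicate 4 was apart for ENSRNOG00000048402, at 37.5 FPKM. Cortical lean replicate 2 was apart for ENSRNOG00000028985 at 3.60, for ENSRNOG00000056476 at 1.04 and for ENSRNOG00000010254 at 0.0654 FPKM. Medullary lean replicate 5 was apart for ENSRNOG00000010254, at 0.0726 FPKM, the other 4 being listed at 0. Medullary lean replicate 1 had the lowest relative depth of its group, 0.987.

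The difference between enalapril and lean was itself different between cortex and medulla, by the interaction test of limma, in 459 genes on the deposited and 495 on the rescaled values. The leading ones among those called on both scales were ENSRNOG00000056476 at 2.99, ENSRNOG00000028985 at 2.31, ENSRNOG00000010254 at -2.86 and ENSRNOG00000043342 at -2.63 on the log2 scale. The last pair rests on a level at or near 0 in lean libraries, and entered the test through enalapril medulla alone. The first pair was low in cortex in both groups. ENSRNOG00000056476 had cortical means of 0.294 FPKM in lean and 0.205 in enalapril libraries. For ENSRNOG00000028985 the cortical medians were 0.379 and 0.0563, with lean replicate 2 at 3.60. A cortical fold could therefore not be measured well for any of these IDs, and their interactions came mainly from medulla.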

How the results depend on the processing

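No named ID reversed its direction under any alternative run. The more common direction of the interaction did turn with rescaling, from 145 higher and 314 lower to 283 and 212. With relative depth as a term, medulla gave 3276 calls on the deposited and 2985 on the rescaled values, and the interaction 171 and 223. Depth does not overlap between the medulla groups, so this term and the group cannot be told apart. With the replicate block, the interaction gave 272 calls on the deposited and 273 on the rescaled values, cortex 3300 and 2937, and medulla 4621 and 3696. Same-numbered enalapril and lean libraries correlated across genes at -0.04 to 0.14 in cortex and -0.21 to 0.18 in medulla. Same-numbered cortex and medulla libraries correlated at 0.034 to 0.104 under enalapril and at 0.0001 to 0.116 in lean. Enalapril and lean libraries cannot come from the same animal, as their genotypes differ. For cortex and medulla libraries of the same group, these values cannot show whether a shared number marks a shared animal. Whether the numbers pair any libraries is therefore not known. With a pseudocount of 0.1, ENSRNOG00000028985 had an interaction of 1.63 (limma, adjusted p = 0.28), and 1.78 after rescaling (adjusted p = 0.244).

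Leaving out 1 library at a time gave 3962 to 4311 calls in cortex (3421 to 3748 rescaled), 5178 to 5978 in medulla (4104 to 4641) and 341 to 550 for the interaction (375 to 564). On the deposited values, 2816 higher and 659 lower cortical genes were called whichever library was left out, and in medulla 3956 and 779, against 1273 and 418, and 872 and 398, under every alternative on both scales. For the interaction, 96 and 200 held whichever library was left out, and 35 and 46 under every alternative on both scales. The fit of all 25 libraries, over the genes tested in 10, gave 3035 calls in cortex and 6185 in medulla. Every ID named for a tissue comparison was called under every alternative run. Shallower medullary enalapril libraries limit low genes there.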
